A study of Mus musculus with 10 samples.

Results

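The productive Igh rearrangements of peritoneal B-1a cells were searched for heavy chains whose CDR3, the complementarity-determining region at the V-D-J junction, is rich in basic residues. A CDR3 was called basic where it held 2 or more of arginine, lysine and histidine from the 4th amino acid on, so that the arginine that many V genes encode just before that place was not counted. The members were thus chosen by the deposited CDR3 sequence, and their residue content is a description and not a result. Of 182329 productive clonotypes, 5806 were basic, and 176523 were not. A clonotype is 1 row of a deposited table, which is a V allele entry, a J allele entry and a CDR3 amino acid sequence, with the number of its reads.

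The B-1a cells were sorted from the peritoneal cavity of C57BL/6 mice of 6 to 8 weeks, and Igh was amplified from their genomic DNA in 2 WT and 2 Igll1-/- libraries. The Igll1-/- mice lack Igll1, and their libraries were otherwise made like those of the WT mice. The labels do not say whether a library is 1 mouse or a pool, so p-values measure only the spread between these libraries, which may be technical. WT replicates 1 and 2 held 50891 and 46309 productive clonotypes from 205921 and 200915 reads. Igll1-/- replicates 1 and 2 held 30436 and 54693 productive clonotypes from 170208 and 264284 reads. The primers bound in framework 3 of V and in J, with primers added for VH12-3, and products of 120 to 280 bp were kept. The tables hold no expression of marker genes, so the sorted cell type could not be checked.

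The heavy-chain CDR3 spans the junction of V, D and J and is the most variable part of the antigen-binding site. Igll1 encodes lambda5, which with VpreB forms the surrogate light chain (SLC) that pairs with a new heavy chain in the pre-BCR. Arginines in the CDR3 are known from antibodies that bind DNA and from polyreactive antibodies. Which of the CDR3s described here bind any antigen was not measured.

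The basic CDR3s with the most reads in each library are shown first, because they are the basic heavy chains that were read most often. Each is given in amino acids from its first to its last residue, and only CDR3s of at most 14 amino acids are printed.
WT replicate 1, IGHV1-4 or IGHV1S26 with IGHJ2: ARWRWDRDYFDY
WT replicate 1, IGHV1-50 with IGHJ4: ARQLRLRYYAMDY
WT replicate 1, IGHV5-17 with IGHJ4: ARGSRNPRMDY
WT replicate 2, IGHV11-2 with IGHJ1: MRYNSKRWYFDV
WT replicate 2, IGHV11-2 with IGHJ1: MRYGLRHWYFDV
Igll1-/- replicate 1, IGHV1-53 with IGHJ4: ARGLRRYYAMDY
Igll1-/- replicate 1, IGHV9-3 with IGHJ3: ARGLWLRRGPWFAY
Igll1-/- replicate 2, IGHV1-22 with IGHJ4: ARQLRLRAMDY
Igll1-/- replicate 2, IGHV1-55 with IGHJ3: AREGWLRRETWFAY
In WT replicate 2 the CDR3 ARQLRLRYYAMDY was among the 3 largest again, in a row listed as IGHV1-50 or IGHV1-59. The third largest of Igll1-/- replicate 1 and the second largest of Igll1-/- replicate 2 had 15 residues and are not printed. Most of the printed CDR3s carry a leucine next to an arginine, as LRR, LRLR or LRH, and the exceptions are ARWRWDRDYFDY, ARGSRNPRMDY and MRYNSKRWYFDV.

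Basic CDR3s were a small part of every library, and the WT libraries differed more from each other than the genotypes did. They made up 4.02% of the productive clonotypes in WT replicate 1 (2046 clonotypes, 95% Wilson interval 3.85% to 4.19%) and 2.71% in WT replicate 2 (1253, 2.56% to 2.86%). They made up 3.15% in Igll1-/- replicate 1 (960, 2.96% to 3.36%) and 2.83% in Igll1-/- replicate 2 (1547, 2.69% to 2.97%). Both Igll1-/- libraries lay between the WT libraries, and both replicates 1 lay above both replicates 2. The intervals cover counting error only and treat rows as independent, though the same CDR3 can fill several of them. The genotype means were 3.36% ± 0.93 (SD, n = 2) in WT and 2.99% ± 0.23 (SD, n = 2) in Igll1-/- (difference -0.37 percentage points, exact two-sided permutation test, p = 1). With 2 libraries against 2 this test cannot give a p below 0.333. WT replicate 1 had the highest share. The chi-square over rows was 127.8 on 1 degree of freedom within WT, against 7.25 within Igll1-/-. It too treats rows as independent, so its size is a description only. With each CDR3 of a library counted once, the shares were closer, at 5.03% and 4.19% in WT and 4.77% and 4.33% in Igll1-/-. Without WT replicate 1 the genotype difference over all clonotypes turned, to 0.29 percentage points higher in Igll1-/-.

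By reads, the share was 1.90% and 1.84% in WT replicates 1 and 2, and 1.197% and 1.52% in Igll1-/- replicates 1 and 2. Both Igll1-/- libraries were lower than both WT libraries, by a mean of 0.51 percentage points (1.87% ± 0.04 against 1.36% ± 0.23, SD, n = 2 each). The exact two-sided permutation p was 0.333, its lower limit with 4 libraries. The difference was -0.48 percentage points without WT replicate 1. It turned in direction when the whole CDR3 was counted (0.99 percentage points higher in Igll1-/-) or when basic residues had to exceed acidic ones by 2 (0.062 higher).

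Counting only well-read clonotypes lowered the share in every library. Among clonotypes with at least 2 reads it was 3.26%, 2.02%, 2.01% and 2.22% in WT replicates 1 and 2 and Igll1-/- replicates 1 and 2. Among clonotypes with at least 10 reads it was 1.53%, 1.47%, 1.36% and 1.48% in the same order, which rests on 37, 37, 25 and 41 basic clonotypes. The excess of WT replicate 1 was thus seen among clonotypes of few reads, and the 4 libraries lay between 1.36% and 1.53% at 10 reads.

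**Figure D1:**
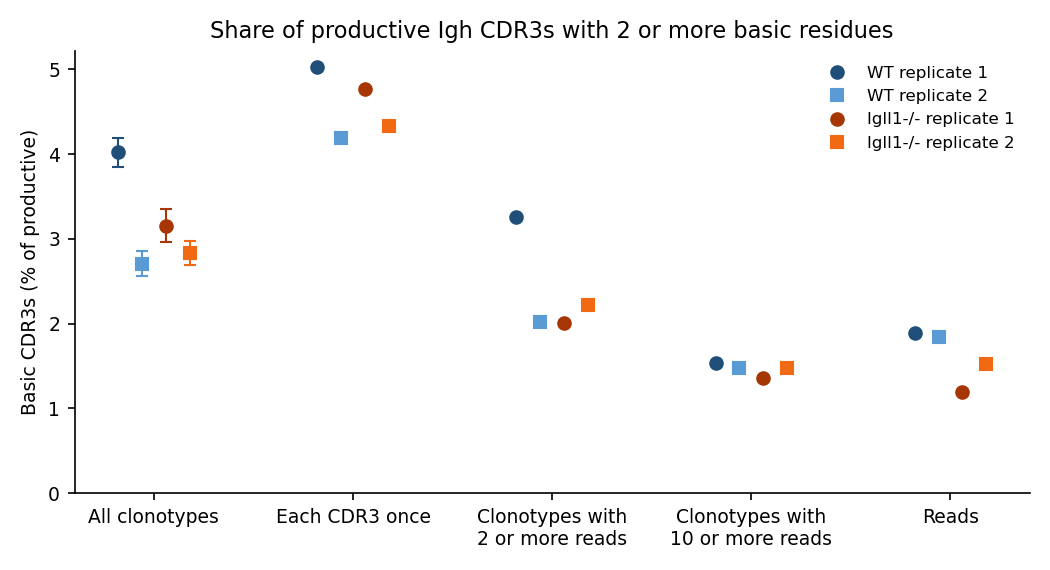
Share of productive Igh CDR3s called basic (y axis, percent), counted over all clonotypes, each CDR3 sequence once, clonotypes with at least 2 or at least 10 reads, and reads (x axis). Each point is 1 library, and the bars, drawn over all clonotypes only, are 95% Wilson intervals. WT replicate 1 is highest over all clonotypes (4.02%), and the libraries lie between 1.36% and 1.53% at 10 or more reads.

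The step from 1 to 2 basic residues was a steep one. CDR3s with exactly 1 basic residue, just outside the rule, made up 18.9% and 17.0% of productive clonotypes in the WT libraries and 16.8% and 14.6% in the Igll1-/- libraries. CDR3s with exactly 2, just inside it, made up 3.32% and 2.36% in WT and 2.65% and 2.38% in Igll1-/-. With 3 they made up 0.584% and 0.285% in WT and 0.411% and 0.388% in Igll1-/-, and between 29 and 57 clonotypes of a library had 4 or more. The CDR3s with exactly 1 were fewer in both Igll1-/- libraries than in both WT libraries (exact permutation test, p = 0.333, the smallest the design allows).

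Arginine was the main basic residue. Of the basic residues of the members, 77.2%, 72.4%, 79.8% and 76.1% were arginine in WT replicates 1 and 2 and Igll1-/- replicates 1 and 2. Histidine gave 13.3%, 17.1%, 12.3% and 14.2%, and lysine 9.6%, 10.5%, 7.9% and 9.6%. Arginine was also the main basic residue of the other productive clonotypes, at 68.1%, 65.9%, 71.1% and 65.8% in the same order. In 57.8%, 51.6%, 62.6% and 58.1% of the members every basic residue was an arginine. Basic residues often stood side by side: 45.7%, 48.2%, 51.9% and 48.7% of the members held an adjacent pair, and 32.9%, 27.1%, 40.0% and 34.6% held 2 arginines in a row. Among the members both Igll1-/- libraries were above both WT libraries in arginine pairs, a difference that was not tested. Over all productive clonotypes such pairs stood in 1.32% and 0.73% in WT and 1.26% and 0.98% in Igll1-/-, highest in WT replicate 1. These shares count rows, and the same CDR3 can fill several of them.

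Per CDR3, the members held nearly the same number of acidic residues as the others, though they were longer. They had a mean of 1.01, 1.12, 0.94 and 0.97 aspartates and glutamates from the 4th amino acid on, and the other productive clonotypes 1.09, 1.10, 0.95 and 0.94 (mean difference -0.009 ± 0.051, SD, n = 4 libraries, exact sign-flip test, p = 0.875). The mean net of basic minus acidic residues was 1.199, 1.05, 1.26 and 1.24 in the members and -0.90, -0.93, -0.78 and -0.79 in the others, a difference that follows from the rule. The net reached 2 in 36.0%, 23.7%, 37.1% and 35.4% of the members. Of all basic residues of the members, the 4th amino acid held 20.9%, 18.7%, 21.9% and 17.1%, and the 7th held 17.2%, 20.04%, 18.3% and 17.5%, so that the 7th was above the 4th in both replicates 2.

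Basic CDR3s were longer than the rest, as the rule favours, since a long CDR3 has more places for a basic residue. Their mean length was 12.9 amino acids in both WT libraries and 13.3 and 13.2 in Igll1-/-, against 10.6, 10.4, 10.3 and 10.2 in the other clonotypes. The median was 12 in each library. In CDR3s of up to 8 amino acids the basic share was 0.62%, 0.22%, 0.58% and 0.31% in WT replicates 1 and 2 and Igll1-/- replicates 1 and 2. In those of 12 to 14 it was 6.19%, 4.58%, 5.46% and 3.92%, and in those of 15 to 25 it was 8.77%, 5.33%, 6.43% and 8.12%. The share rose over these classes in every library, and the genotypes overlapped in each of these length classes.

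Mean length was 0.36 amino acids greater in the Igll1-/- than in the WT members, with no overlap of libraries (13.29 ± 0.07 against 12.92 ± 0.01, SD, n = 2, exact permutation test, p = 0.333). That difference was lost and turned to -0.023 when CDR3s of over 25 amino acids were left out. Such very long CDR3s were 1.52%, 2.23%, 3.75% and 2.84% of the members and at most 0.05% of the other clonotypes in a library. All 31 and 28 of them in the WT libraries had 1 read, as did 35 of 36 and 41 of 44 in the Igll1-/- libraries. The tryptophan-glycine motif WGXG (X any residue) that marks the start of framework 4 stood inside 12, 2, 8 and 11 of them. Held to 1 common length distribution, the basic share of clonotypes was 3.85% and 2.71% in WT and 3.18% and 3.02% in Igll1-/-.

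**Figure D2:**
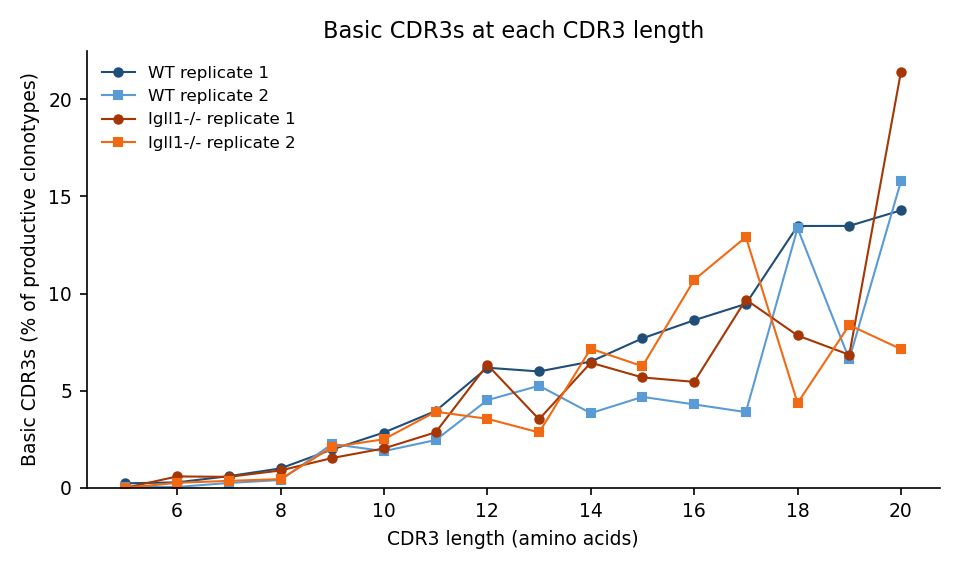
Share of productive clonotypes with a basic CDR3 (y axis, percent) at each CDR3 length from 5 to 20 amino acids (x axis), 1 line per library. The share is 0.22% to 0.62% over CDR3s of up to 8 amino acids and 5.33% to 8.77% over those of 15 to 25, with falls between single lengths; the points at 19 and 20 amino acids rest on few clonotypes.

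Basic and other CDR3s differed in the D genes they used. A D gene can be read in several frames, and the CDR3 residues that it encodes depend on the frame, so D use is tied to the rule and is given without a test. IGHD2-2 made up 11.97% and 9.6% of the basic clonotypes in WT and 15.2% and 15.3% in Igll1-/-, against 3.9%, 3.0%, 4.6% and 3.0% of the other clonotypes. IGHD3-2 made up 12.2% and 12.6% in WT and 8.2% and 15.1% in Igll1-/-, against 3.8%, 3.7%, 3.0% and 2.6%. Both were higher among the members than among the other clonotypes in every library. The shares count rows, and the same CDR3 can fill several of them, as given below. Within these genes 8.09% to 12.7% of the IGHD2-2 clonotypes and 8.19% to 14.3% of the IGHD3-2 clonotypes were basic.

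IGHD2-4 was also higher among basic clonotypes (11.3%, 7.98%, 12.8% and 9.70%, against 8.21%, 5.57%, 7.50% and 7.28%). IGHD1-1 was the most used D gene of both classes, but it was lower among basic clonotypes in every library (21.9% to 24.4%, against 28.6% to 31.1%). IGHD2-3 was lower too, at 9.09%, 7.82%, 9.27% and 6.33% against 10.5%, 10.1%, 9.31% and 11.1%. Clonotypes with no D gene assigned were 0 to 0.39% of the members and 6.17% to 7.15% of the others.

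The residues around the arginines followed the D gene. The tripeptide LRR was held by 59.2%, 61.7%, 63.7% and 79.7% of the basic clonotypes with IGHD2-2, and RLR by 55.2%, 70.9%, 50.6% and 70.4% of those with IGHD3-2. Among basic clonotypes with IGHD2-4, 53.0%, 38.0%, 58.5% and 52.0% held LRR. With IGHD2-3 the most frequent tripeptide was LLR (28.0%, 35.7%, 34.8% and 39.8%). With IGHD1-1 the tripeptides GSR (14.4%, 12.7%, 14.1% and 10.1%), HYY (10.1%, 7.64%, 8.64% and 20.9%) and RYF (6.65%, 13.1%, 7.27% and 14.8%) were each held by a smaller part of the basic clonotypes. The large clonotypes printed above include ARGLWLRRGPWFAY and AREGWLRRETWFAY with IGHD2-2, ARQLRLRYYAMDY and ARQLRLRAMDY with IGHD3-2, and ARGLRRYYAMDY with IGHD2-4. Over all members LRR was held by 18.0% and 14.5% in WT and 23.0% and 20.8% in Igll1-/-, and by 14.4% and 8.45% of basic reads in WT and 27.2% and 24.96% in Igll1-/-. Among the members both Igll1-/- libraries were above both WT libraries in this tripeptide, which was singled out after its values were seen and was not tested. Over all productive clonotypes LRR stood in 368 of 50891 and 182 of 46309 rows in WT, and in 221 of 30436 and 322 of 54693 in Igll1-/-. By that count WT replicate 1 lay above Igll1-/- replicate 2. The clonotype shares count rows, and the same CDR3 can fill many. AREGWLRRETWFAY stood in 45 of the 322 LRR rows of Igll1-/- replicate 2. For RLR, ARQLRLRYYAMDY stood in 54 of 161 rows of WT replicate 2, and ARQLRLRAMDY in 49 of 210 rows of Igll1-/- replicate 2. The order of the libraries without such repeats was not computed.

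**Figure D3:**
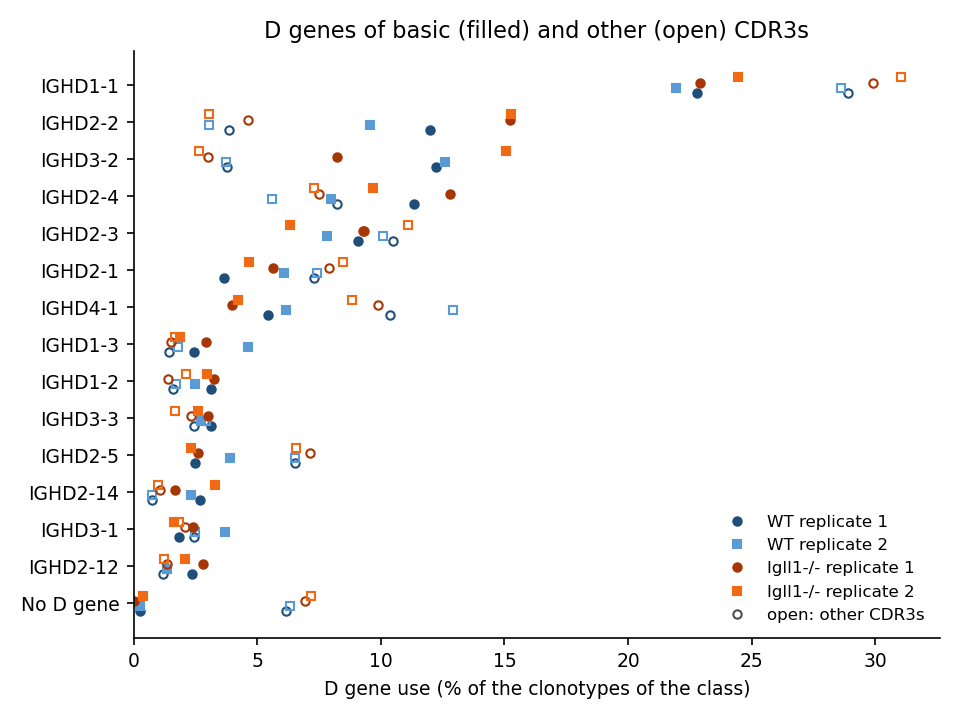
D gene use (x axis, percent of the clonotypes of a class) of basic (filled) and other (open) productive clonotypes, for D genes with a mean of at least 2% in either class and for clonotypes with no D gene; each point is 1 library. IGHD2-2 and IGHD3-2 are at 8.2% to 15.3% of basic and 2.6% to 4.6% of other clonotypes, and IGHD1-1 is lower among basic clonotypes in all 4 libraries.

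J gene use also differed between the classes. IGHJ2 was lower among basic clonotypes in every library (37.7%, 38.7%, 39.6% and 36.0%, against 45.8%, 45.3%, 44.4% and 43.7%). IGHJ4 was higher in every library (20.2%, 21.6%, 19.4% and 21.5%, against 18.0%, 18.0%, 17.9% and 19.6%). IGHJ3 made up 29.5%, 16.1%, 27.5% and 30.8% of the basic and 23.3%, 18.4%, 25.1% and 25.95% of the other clonotypes, lowest in WT replicate 2 in both classes. IGHJ1 made up 12.7%, 23.5%, 13.5% and 11.6% of the basic and 12.9%, 18.2%, 12.6% and 10.7% of the other clonotypes, highest in WT replicate 2 in both classes.

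None of the D and J genes was called different between genotypes among the basic clonotypes. With edgeR's quasi-likelihood test, adjusted by Benjamini-Hochberg over 47 rows of D and J genes, of which 21 were basic, 0 rows passed an adjusted p of 0.05 (0% of the table), and 0 of the basic rows had an unadjusted p below it. DESeq2 called 0 as well (0% of the table). The smallest unadjusted p among basic rows belonged to IGHJ1, which shared its adjusted p with IGHD4-1 and IGHD2-13, with a log2 fold change of Igll1-/- over WT of -0.61 (SE 0.29, adjusted p = 0.520 by edgeR).

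The V genes that held most basic clonotypes were also well used by others. IGHV5-17 made up 7.72% and 5.03% of the basic clonotypes in WT and 8.02% and 9.11% in Igll1-/-, and IGHV12-3 made up 7.67%, 7.18%, 9.06% and 5.17% in the same order. IGHV5-4 followed with a mean of 5.16%, IGHV1-53 with 4.74%, IGHV1-72 with 4.59% and IGHV1-64 with 4.37%. The family IGHV1, the largest, made up 53.4%, 47.3%, 51.8% and 48.0% of basic and 48.5%, 44.6%, 45.9% and 44.6% of other clonotypes. A basic clonotype was found with 92 of 139 V genes that had clonotypes assigned to that gene alone, and with 55 of them in all 4 libraries.

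V genes differed in the share of their clonotypes that was basic. Among the 55 V genes with at least 50 productive clonotypes in each library the median share was 3.05%. The highest mean shares were those of IGHV1-72 (6.86%, 4.16%, 8.19% and 4.37%), IGHV1-53 (6.31%, 4.24%, 6.58% and 4.84%), IGHV12-3 (6.43%, 4.33%, 7.32% and 3.78%) and IGHV1-84 (5.49%, 2.83%, 8.99% and 4.21%). The shares of IGHV1-84 rest on only 10, 6, 8 and 9 basic clonotypes. The lowest were those of IGHV9-2 (mean 1.75%), IGHV10-1 (1.74%), IGHV3-6 (1.51%) and IGHV1-56 (1.28%), which rest on 8 to 24 basic clonotypes each over the 4 libraries. In each of these 4 genes with the highest shares, both replicates 1 were above both replicates 2, with no order by genotype. The share over all productive clonotypes had the same order.

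**Figure D4:**
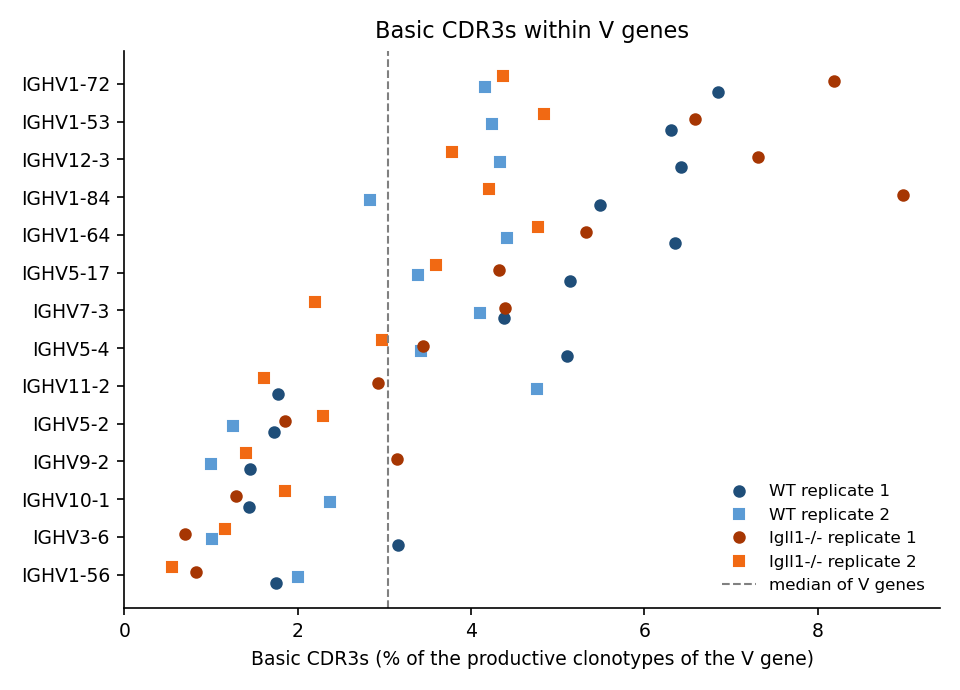
Basic CDR3s as a percent of the productive clonotypes of a V gene (x axis). The genes are those named for the most basic clonotypes, for the highest or lowest basic share, or from the V gene lists. Only genes with at least 50 productive clonotypes in each library are drawn. Each point is 1 library and the dashed line is the median of the 55 V genes with that many (3.05%). The libraries of 1 gene spread widely, as from 3.78% to 7.32% in IGHV12-3.

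IGHV12-3 and IGHV11-2 are known for antibodies to phosphatidylcholine, which are typical of B-1a cells. In IGHV12-3, 126 of 157, 63 of 90, 68 of 87 and 39 of 80 basic CDR3s began with AGDR, in which the 4th residue is already an arginine, so that 1 more basic residue met the rule. An arginine was the 4th residue in 35.4%, 27.0%, 32.3% and 14.7% of all productive IGHV12-3 clonotypes. Counted from the 5th residue on, the basic share of IGHV12-3 was 0.90%, 1.15%, 1.18% and 1.70%. Over all V genes, 46.3%, 40.5%, 48.2% and 37.9% of the members had a basic 4th residue, so this count lowers the share outside IGHV12-3 too. Many of the basic IGHV12-3 clonotypes differed by 1 amino acid from a clonotype of the same V, J and length with at least 10 times their reads (50.3%, 54.4%, 67.8% and 46.3%). How many of the other IGHV12-3 clonotypes did so was not computed. The largest basic IGHV12-3 clonotypes are shown with their reads.
IGHV12-3, 63 reads in Igll1-/- replicate 1: AGDRGGHYYFDY
IGHV12-3, 41 reads in WT replicate 1 and 1 in Igll1-/- replicate 1: AGDRYGYKYFDV
IGHV12-3, 29 reads in WT replicate 1 and 4 in Igll1-/- replicate 1: AGDRRGYYYFDY
The first lies 1 residue from AGDRGGYYYFDY, the second from AGDRYGYGYFDV, and the third from AGDREGYYYFDY or AGDRGGYYYFDY, each of which had 1 basic residue in the counted part.

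In IGHV11-2 most of the members came from 1 library, WT replicate 2. It gave 25 and 102 basic clonotypes in WT and 7 and 8 in Igll1-/-, which is 1.78% and 4.76% of its productive clonotypes in WT and 2.93% and 1.62% in Igll1-/-. It held 32.4% of the basic reads of WT replicate 2, and 0.85%, 0.44% and 0.37% of those of WT replicate 1 and Igll1-/- replicates 1 and 2. MRYNSKRWYFDV alone had 817 reads in WT replicate 2, 8 in WT replicate 1, 7 in Igll1-/- replicate 2 and 0 in Igll1-/- replicate 1. Of the 102 basic IGHV11-2 clonotypes of WT replicate 2, 66 lay 1 amino acid from a clonotype with at least 10 times their reads. The same count for the other IGHV11-2 clonotypes was not made. Without IGHV11-2, the share of basic reads was 2.38% and 1.67% in WT and 1.198% and 1.53% in Igll1-/-, with both Igll1-/- libraries below both WT libraries still. IGHV11-1, the other gene of that family, had 2 to 4 basic clonotypes in a library.

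Of the phosphorylcholine-type genes, IGHV7-3 had 43, 37, 27 and 25 basic clonotypes (4.38%, 4.10%, 4.40% and 2.20% of its own), IGHV7-4 had 7 in all and IGHV7-1 had 0. IGHV5-2, one of the genes near the D segments, had 3, 1, 1 and 5.

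No V gene was called different between genotypes among the basic clonotypes. In 128 rows of V genes, of which 37 were basic, edgeR's quasi-likelihood test called 0 (0% of the table), and DESeq2 called 0 of the basic rows and 1 of all 128 (0.781%). A single basic row had an unadjusted p under 0.05, that of IGHV11-2, with a log2 fold change of -2.85 (SE 0.92, adjusted p = 0.533 by edgeR). IGHV1-76 (28, 14, 4 and 11 basic clonotypes) followed with -1.31 (SE 0.58, adjusted p = 0.538), and IGHV8-8 (16, 13, 3 and 9) with -1.12 (SE 0.52, adjusted p = 0.538). The row of other IGHV11-2 clonotypes fell as well (log2 fold change -2.11, SE 0.32, adjusted p = 0.079 by edgeR), so the fall was not limited to basic ones. Without either WT library, the basic row of IGHV11-2 held too few clonotypes to be tested. The share of basic clonotypes within a V gene, tested as a class by genotype term in 37 V genes with at least 10 basic clonotypes in at least 2 libraries, was called in 0 of them (0%, edgeR, smallest adjusted p = 0.985), and 0 had an unadjusted p under 0.05. In IGHV11-2 that term was -0.56 (SE 0.67) and in IGHV12-3 -0.01 (SE 0.50).

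Basic clonotypes were smaller than the rest in every library. In the members 75.4%, 80.0%, 82.2% and 74.5% of the clonotypes rested on 1 read, against 69.5%, 73.0%, 71.8% and 67.2% of the others, a mean difference of 7.66 percentage points ± 1.93 (SD, n = 4 libraries, higher in 4 of 4, exact sign-flip test, p = 0.125, the smallest 4 libraries allow). Clonotypes with at least 10 reads were 1.81%, 2.95%, 2.60% and 2.65% of the members and 4.86%, 5.50%, 6.16% and 5.15% of the others (mean difference -2.91 ± 0.50, SD, n = 4, lower in 4 of 4, exact sign-flip test, p = 0.125). Between genotypes, the percent of members with at least 10 reads was 2.38% ± 0.81 in WT and 2.63% ± 0.03 in Igll1-/- (SD, n = 2, exact permutation test, p = 1). Without WT replicate 1 it was 0.33 percentage points lower in Igll1-/-.

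The largest basic row ranked 90 and 11 among all productive rows in WT, and 205 and 80 in Igll1-/-, by reads. The largest basic clonotypes had 145 and 817 reads in WT and 83 and 350 in Igll1-/-, with rows of the same V, J and CDR3 added, against 13602, 15813, 22183 and 10479 reads in the largest other row. Of the 100 largest rows of each library, 1, 2, 0 and 1 were basic. The 10 largest basic rows held 15.01%, 42.3%, 27.1% and 32.5% of the basic reads, and the 10 largest others 22.6%, 18.3%, 27.8% and 10.6% of the other reads.

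**Figure D5:**
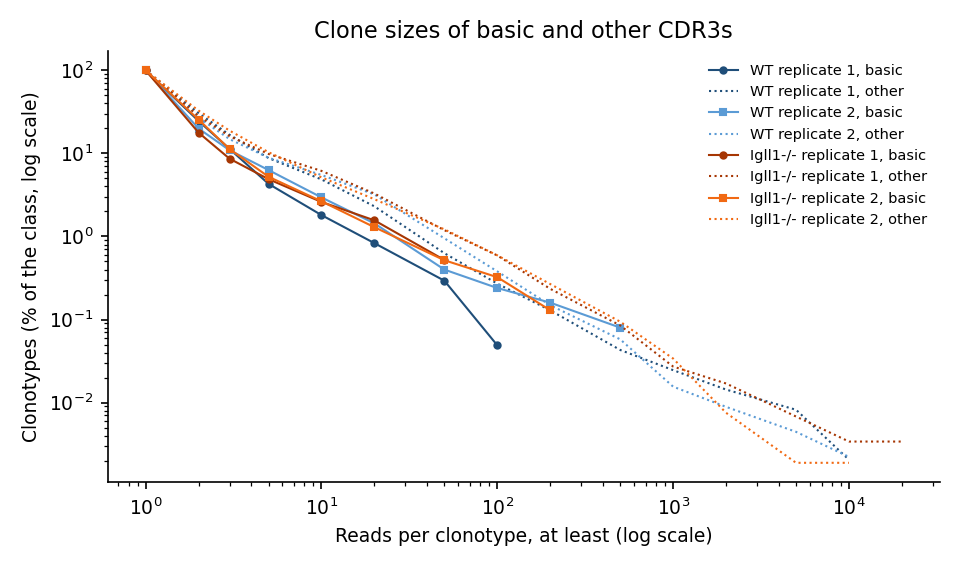
Percent of basic (solid lines) and other (dotted lines) productive clonotypes (y axis, log scale) with at least the number of reads on the x axis (log scale), 1 line per library and class. From 2 to 100 reads the basic line lies below the other line of the same library; at 10 reads the basic lines are at 1.81% to 2.95% and the others at 4.86% to 6.16%.

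Identity to the germline V gene was close in both classes. The primers bound in framework 3 of V, so identity covers only the end of V that was amplified. The mean identity was 98.4%, 98.6%, 98.6% and 98.2% in the members and 98.4%, 98.4%, 98.4% and 98.2% in the others (mean difference 0.11 ± 0.12, SD, n = 4, exact sign-flip test, p = 0.375). An amplified part of V identical to germline was found in 39.5%, 42.6%, 39.3% and 35.7% of the members and in 44.5%, 44.6%, 41.4% and 37.6% of the others, lower in 4 of 4 libraries (mean difference -2.75 ± 1.45, SD, n = 4, exact sign-flip test, p = 0.125).

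Part of the basic clonotypes lay close to a larger clonotype of the same library. In WT replicates 1 and 2 and Igll1-/- replicates 1 and 2, 5.91%, 13.3%, 12.7% and 11.5% of the members differed by 1 amino acid from a clonotype of the same V, J and length with at least 10 times their reads, against 9.44%, 13.3%, 14.8% and 16.2% of the others. For 81.0%, 48.5%, 62.3% and 56.7% of these members the larger clonotype was not basic. Of 381 such members that had more basic residues than their larger neighbour, 230 (60.4%) had a histidine in place of a tyrosine, 38 (9.97%) an arginine in place of a tryptophan and 32 (8.40%) an arginine in place of a glycine. Without near-identical clonotypes the basic share was 4.17% and 2.71% in WT and 3.23% and 2.98% in Igll1-/-.

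The same basic CDR3 was often listed with several V genes in 1 library. Of the basic clonotypes with a single V gene, 14.1%, 22.9%, 14.8% and 25.2% had a CDR3 that also stood with another V gene in that library, against 30.5%, 51.5%, 40.4% and 53.3% of the others. AREGWLRRETWFAY stood in 45 rows with 40 V entries, all in Igll1-/- replicate 2 and with 319 reads in all. ARQLRLRYYAMDY stood in 16, 54, 2 and 5 rows of WT replicates 1 and 2 and Igll1-/- replicates 1 and 2, and ARQLRLRAMDY in 4, 13, 4 and 49. With each CDR3 of a library counted once, the basic share was 5.03% and 4.19% in WT and 4.77% and 4.33% in Igll1-/-, a genotype difference of -0.057 percentage points (exact permutation test, p = 1, n = 2 per genotype). Whether such rows come from separate cells or arose in amplification was not tested.

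Most basic clonotypes were private to a library, as most other clonotypes were. Of 4831 distinct members by V, J and CDR3, 640 were found in more than 1 library, 443 of them in 2, 146 in 3 and 51 in all 4. Of all 149111 distinct productive clonotypes, 1753 were found in all 4. In a library 26.2%, 24.2%, 32.1% and 26.02% of the members recurred in another, against 32.6%, 23.0%, 32.0% and 23.6% of the other clonotypes. By reads the recurring part was 32.1%, 48.5%, 30.9% and 24.7% of basic and 64.6%, 53.3%, 65.8% and 50.5% of other reads, lower among the members in each library. The libraries differ in size, so these shares were not tested. The basic CDR3s found in all 4 libraries with the highest mean percent of reads, and of at most 14 residues, are shown because they were found in both genotypes.
IGHV5-17 with IGHJ2: ARGRLGRGYFDY
IGHV1-72 with IGHJ1: ARSRGSRWYFDV
IGHV5-9 with IGHJ3: ARGRRRGGFAY
IGHV5-4 with IGHJ3: ARGWLLRRGFAY
ARGRLGRGYFDY had 3, 1, 36 and 2 reads in WT replicates 1 and 2 and Igll1-/- replicates 1 and 2. ARSRGSRWYFDV had 16, 5, 4 and 9, ARGRRRGGFAY 10, 6, 2 and 4, and ARGWLLRRGFAY 10, 4, 1 and 5. None of these 4 exceeded 36 reads in a library.

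Unproductive rearrangements, which encode no heavy chain, held more CDR3s under the same rule. The share was 14.6% and 21.9% in WT and 13.4% and 13.6% in Igll1-/-, out of 4238, 3500, 1950 and 3512 unproductive clonotypes. Most of them had a stop codon within the CDR3 (72.8%, 87.8%, 84.9% and 84.7%), and of these 18.8%, 24.4%, 15.3% and 15.6% met the rule. Of the unproductive clonotypes without a stop in the CDR3, 3.47%, 3.75%, 2.72% and 2.61% met it (40, 16, 8 and 14 clonotypes), which is near the productive shares of 4.02%, 2.71%, 3.15% and 2.83%.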

How the data were processed

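Libraries of Igh rearrangements from genomic DNA were sequenced, and their V, D and J genes were assigned by the authors in IMGT/High-V-QUEST (its version is not given in the sources used here). The deposited tables give, per clonotype, the count of reads and the percent identity to the germline V gene, with no further normalisation and no molecular barcode. No genome build is named and no coordinates are given. The Igk tables were not used here. The members and all lists were chosen with earlier results of these data known.

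From the 4 Igh tables, rows marked productive were kept and CDR3 length and residues were computed from the amino acid sequence (Python 3.11.15, pandas 2.3.3). Shares were compared over libraries by exact two-sided permutation tests (scipy 1.17.1), which with 2 against 2 give no p below 0.333, and classes within a library by sign flips over 4 libraries, which give none below 0.125. V, D and J genes were counted by clonotype, with rows of at least 10 clonotypes in at least 2 libraries, and tested with edgeR 4.0.16 (quasi-likelihood, R 4.3.3), the number of productive clonotypes being the library size. DESeq2 1.42.0 was an alternative. A share of 3 clonotypes of a library, the limit that a count of 0 allows, is 0.0055% to 0.0099%. The scripts were tested on simulated data. V genes were named as the 6 with the most basic clonotypes, the 4 with the highest and the 4 with the lowest basic share, the V gene lists, and the 3 basic rows with the smallest p. D genes were the 5 with the most basic clonotypes. Clonotypes were the 3 largest per library and the 5 largest found in all 4.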

Additional observations from a re-analysis of the deposited data

How the results depend on the processing

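No genotype difference in a share could pass a threshold with 4 libraries, and several changed sign. The genotype difference in the share of clonotypes ran from -1.03 to 0.29 percentage points when 1 library was left out, and was 0.040 with basic residues exceeding acidic ones by 2. The difference by reads ran from -0.67 to -0.35 without 1 library, and became 0.99 over the whole CDR3 and 0.062 with basic exceeding acidic residues by 2. The length difference ran from 0.31 to 0.41 without 1 library, and turned to -0.0057 over the whole CDR3 and to -0.023 at no more than 25 amino acids, an alternative chosen after seeing the data. The difference in members with at least 10 reads ran from -0.33 to 0.82 without 1 library, and was -0.065 with each CDR3 once, also chosen after seeing the data. The cause of these changes was not tested, beyond what each alternative leaves out. Members found in more than 1 library were 27.1% on average, and 36.3% by CDR3 alone. The excess of single-read clonotypes ran from 6.74 to 8.23 percentage points and the deficit at 10 reads from -3.05 to -2.70 without 1 library.

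Basic rows called were 0 for V genes, for D and J genes and for the share within V genes in every alternative run. Over all rows of the V table, other clonotypes included, 0 of 128 were called in the main fit, 1 of 128 with DESeq2, 2 of 231 with no filter, 1 of 142 by reads, 1 of 127 at no more than 25 amino acids, 1 of 104 with each CDR3 once, and 4 of 128 and 3 of 119 without Igll1-/- replicate 1 and 2. The other alternatives for V genes, save the block, and every alternative for the other fits called 0 rows. At 10 reads no basic V row passed the filter and the share within V genes could not be fitted. Same-numbered libraries were not paired by the labels. The correlation of their deviations was 0.07 over 37 basic V rows, a measure that cannot show a shift common to all rows. With the replicate block the mean differences were unchanged by construction, at -0.37 percentage points of clonotypes and -0.51 of reads, while the pairs gave -0.87 and 0.12 of clonotypes. The block called 0 basic rows, and 1 of all 128 rows of the V table.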
